A study of Mus musculus with 11 samples.

Results

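The MYC, MAX and MXD network is a set of basic helix-loop-helix leucine zipper transcription factors, and the transcripts of 10 of its genes were followed in thymocytes from 3 mouse genotypes, namely wt, Zmat3-/- and the triple knockout Puma-/-p21-/-Zmat3-/- (TKO). The genes were taken as a given list, Myc, Mycn, Mycl, Max, Mxd1, Mxd3, Mxd4, Mxi1, Mnt and Mlx, and were matched by GENCODE mouse gene names to the identifiers of the count table. All 10 of the 10 were found among the 54418 genes of the table, each under 1 identifier, and all 10 had enough counts to be tested in each of the 3 comparisons. None of the 10 differed between genotypes after adjustment for multiple testing. Within that result, mean Myc and Mxd3 were lower and mean Mycn and Mycl were higher in both mutant genotypes than in wt mice, while the log2 fold changes (log2FC) of Mnt, Mxi1 and Mlx against wt mice were at most 0.11 in size.

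In this network MAX is the shared partner. MYC, MYCN and MYCL bind DNA as heterodimers with MAX and recruit histone acetyltransferase and chromatin remodelling complexes, whereas MXD1, MXI1, MXD3, MXD4 and MNT compete for MAX and recruit the SIN3 corepressor. MLX is a second partner, which pairs with the glucose-sensing factors MLXIP and MLXIPL and also with some MXD proteins and MNT. All these dimers recognise E-box sequences, among which CACGTG is the form MYC and MAX prefer. In the thymus MYC is known for driving the growth and division of early thymocytes after pre-T cell receptor signalling, and MXD proteins are known for accompanying exit from the cell cycle and differentiation.

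The E-box is the sequence that the network's proteins recognise, so the promoter windows of the members were searched for it. Binding to these windows was not measured. RefSeq promoter sequences (250 bases before to 50 bases after a gene's start, GRCm38.p6) were matched for 9 members, and Myc was not matched. The motif searched was CACGTG, which reads the same on both strands. It was found once in each of 4 of the 9, Max, Mxd4, Mnt and Mlx, compared with 8.09% of the 27025 genes that have a promoter window. Of all 32851 windows of this length, 7.15% held it. No match lay in the windows of Mycn, Mycl, Mxd1 and Mxd3 or in any of the 3 windows of Mxi1. The first base of the motif lay 3 bases before the start of Max, 219 before that of Mxd4, 123 before that of Mnt and 40 before that of Mlx. A stretch of 60 bases that holds each match is printed below, 5′ to 3′ on the strand of the gene, with the motif in capitals (for Max the stretch ends with the motif), because they are the members' own copies of the site that the network's proteins recognise.
Max, chr12:76962246-76962305, minus strand: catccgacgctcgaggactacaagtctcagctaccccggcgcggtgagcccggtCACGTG
Mxd4, chr5:34187897-34187956, minus strand: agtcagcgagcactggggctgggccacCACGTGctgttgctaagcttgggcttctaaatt
Mnt, chr11:74830774-74830833, plus strand: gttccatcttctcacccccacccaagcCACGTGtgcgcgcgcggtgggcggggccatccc
Mlx, chr11:101087223-101087282, plus strand: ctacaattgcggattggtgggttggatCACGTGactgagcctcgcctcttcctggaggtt
None of the 4 genes with the motif passed the test in any comparison. In Zmat3-/- against wt mice their log2FCs were −0.21 for Max, 0.10 for Mxd4, −0.01 for Mnt and −0.08 for Mlx, and in TKO against wt mice they were −0.07, 0.28, 0.006 and −0.07 in the same order.

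RNA-seq was carried out on thymocytes of 4 wt, 4 Zmat3-/- and 3 TKO mice, all 8 to 12 weeks old and on a C57BL/6-WEHI background, with no treatment named in the labels. Zmat3-/- mice lack ZMAT3, an RNA-binding protein encoded by a TRP53 target gene, and TKO mice in addition lack PUMA (Bbc3), a pro-apoptotic BH3-only protein, and p21 (Cdkn1a), a cyclin-dependent kinase inhibitor. The deletions are in the whole animal, each library comes from a cell suspension of the whole thymus of 1 mouse, and the study compared both mutants with wt mice and with each other. Library totals ran from 17669715 to 80207003 counts, and the 10 genes had between 18 counts (Mycl in wt mouse 3) and 40368 counts (Mxd4 in TKO mouse 3) in a mouse, with at least 418 for every gene other than Mycn and Mycl. The lowest value, 0.748 CPM (the count scaled to the normalized library size), has an exact Poisson 95% interval of 0.444 to 1.18, which covers counting error only.

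The wt libraries resembled each other less than those of the mutants. Correlated across genes (genes are no independent replicates), pairs of wt libraries reached 0.894 to 0.982 in log2 CPM, pairs of Zmat3-/- libraries 0.984 to 0.99 and pairs of TKO libraries 0.971 to 0.983. A high Xist level, 507 to 1510 CPM, was seen in 5 libraries (numbers 1 and 2 of wt, numbers 1 and 2 of Zmat3-/-, number 1 of TKO), and 6 had a low one, from 0.722 up to 2.59 CPM, so each genotype held both classes. Transcripts of the targeted genes were still counted. The log2FC of Zmat3 was −1.64 in Zmat3-/- (adjusted p = 0.0786 from edgeR) and −1.28 in TKO against wt mice (adjusted p = 0.371), and that of Cdkn1a was −1.12 in TKO against Zmat3-/- mice (adjusted p = 0.384). Bbc3 was counted at 18.7 ± 1.39 CPM (SD, n = 4) in wt, 17.4 ± 1.95 (SD, n = 4) in Zmat3-/- and 13.6 ± 2.09 (SD, n = 3) in TKO mice. A gene's sum over exons does not tell deleted from remaining exons. Thymocyte markers summed to 12007 to 14848 CPM in the 11 mice. Of the 10 markers, 8 had negative log2FCs in Zmat3-/- against wt mice (median −0.27, 0 called) and 4 had ranges that did not overlap, beside 14.2% of all genes. In TKO against wt mice 8 were negative as well (median −0.18, 0 called), and 2 did not overlap, beside 14.0% of all genes. Cd3e, for example, was counted at 443 to 564 CPM in wt and 328 to 364 CPM in Zmat3-/- mice. Myeloid markers summed to 121 to 297 CPM and B cell markers to 52.8 to 130 CPM. Of 8 tested myeloid markers 4 had positive and 4 negative log2FCs in Zmat3-/- against wt mice (median 0.04). Ranges did not overlap for 1 of the 8, the macrophage gene Adgre1, beside 14.2% of all genes. For stroma the marker sums were 162 to 266 CPM (wt), 200 to 222 CPM (Zmat3-/-) and 175 to 212 CPM (TKO), and for erythroid cells 875 to 8581, 1154 to 5728 and 2719 to 3730 CPM. Pecam1, an endothelial gene also known from blood cells, gave 98.4 to 136 CPM of the stromal sum. Among 10 tested stromal markers, 7 were higher and 3 lower in Zmat3-/- than in wt mice (median log2FC 0.20, 0 called). For TKO and wt mice the split of 11 tested markers was 6 to 5 (median log2FC 0.04, 0 called). Epcam was among the lower ones, with a mean of 12.3 CPM in wt and 8.47 CPM in Zmat3-/- mice. The fibroblast gene Col3a1 was counted at 1.75 to 5.33 CPM (wt), 7.15 to 9.88 CPM (Zmat3-/-) and 1.07 to 12.8 CPM (TKO), with a log2FC of 1.30 in Zmat3-/- against wt mice (adjusted p = 0.103 from edgeR), and Col1a2 had 1.28 there (adjusted p = 0.199). The part of such cells in the network values was not tested. No marker gene had 3 counts or fewer in every mouse.

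Among the 10 genes, Mxd4 had the highest level per length in every genotype. Levels between genes were compared as CPM per kilobase of annotated exon, averaged over the mice of a genotype. In wt mice they were 44.8 ± 2.38 (SD, n = 4) for Mxd4, 27.9 ± 4.16 for Mlx, 25.8 ± 8.38 for Max, 20.4 ± 6.94 for Myc and 18.7 ± 5.4 for Mxd3. They were 9.53 ± 0.33 for Mnt, 9.19 ± 0.646 for Mxi1, 6.14 ± 0.433 for Mxd1, 0.949 ± 0.218 for Mycn and 0.387 ± 0.192 for Mycl (SD, n = 4). In this order Mlx, Max, Myc and Mxd3 each overlapped with their neighbour, as did Mnt and Mxi1, whereas Mxd4, Mxd1, Mycn and Mycl each stood apart from their neighbours. The order was the same in Zmat3-/- and TKO mice except that Mxi1 stood before Mnt, a pair whose ranges overlapped in each genotype. In both mutants the ranges of Max and Myc did not overlap. Max lay at 21.3 to 23.2 and Myc at 11 to 15.6 CPM per kb in Zmat3-/- mice, and they lay at 23 to 28.3 and 11.8 to 14.9 CPM per kb in TKO mice.

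**Figure D1:**
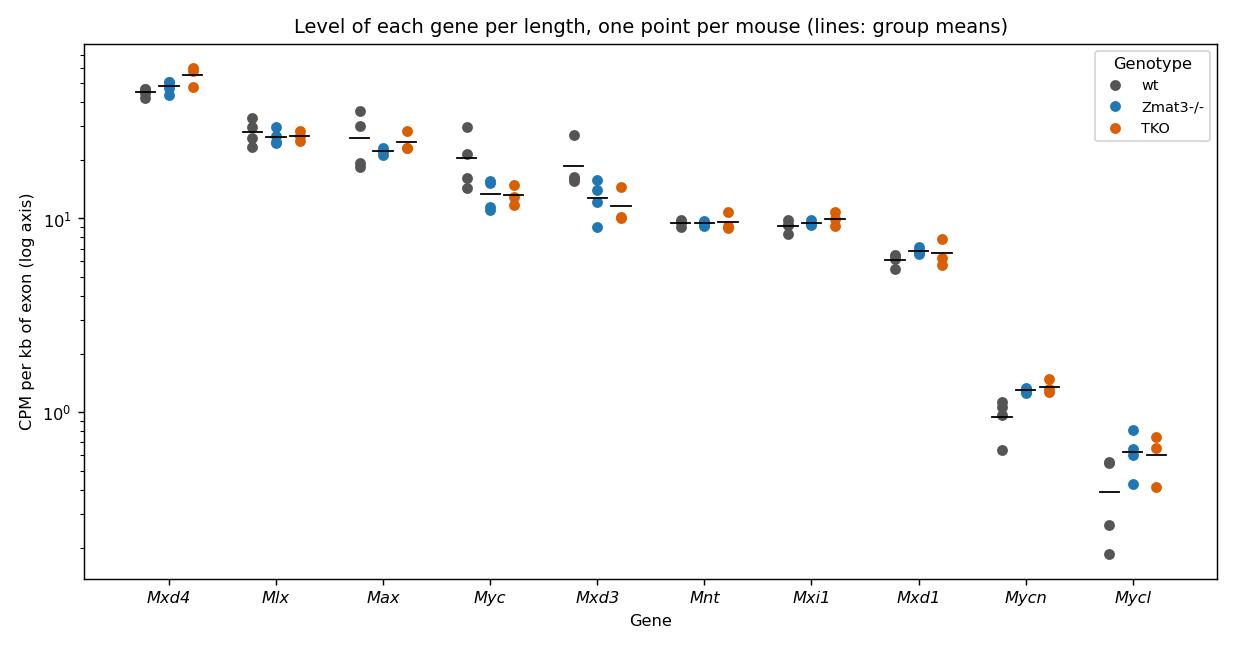
Level of each of the 10 genes as CPM per kilobase of exon on a log axis, one point per mouse (4 wt, 4 Zmat3-/-, 3 TKO), with lines at the genotype means. Mxd4 is highest in every genotype (wt mean 44.8), and Mycn and Mycl (wt means 0.949 and 0.387) lie below the other 8 genes.

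Myc (ENSMUSG00000022346.16, chromosome 15 of GRCm38, 61985391 to 61990374) encodes c-MYC, the founding member of the family. Its level was 81, 58.1, 39 and 43.9 CPM in wt mice 1 to 4, 41.2, 42.5, 30 and 31.1 CPM in Zmat3-/- mice 1 to 4, and 32, 35.2 and 40.5 CPM in TKO mice 1 to 3. The highest values were those of wt mice 1 and 2, and the ranges of wt mice and of both mutants overlapped. The mean was 55.5 ± 18.9 CPM (SD, n = 4) in wt, 36.2 ± 6.55 (SD, n = 4) in Zmat3-/- and 35.9 ± 4.28 (SD, n = 3) in TKO mice. Myc had a log2FC of −0.61 in Zmat3-/- against wt mice (95% interval −1.14 to −0.08, adjusted p = 0.249 from edgeR's quasi-likelihood test with Benjamini-Hochberg adjustment over all tested genes). In TKO against wt mice it was −0.64 (−1.23 to −0.04, adjusted p = 0.454 from the same test). Without wt mouse 1 the values were −0.38 and −0.40. Because these are bulk samples, fewer cells that make a transcript and less transcript per cell cannot be told apart.

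Mycn (ENSMUSG00000037169.15, chromosome 12, 12936093 to 12941914) encodes N-MYC, which is best known from neural and embryonic tissue. Its level was 3.48, 2.1, 3.2 and 3.72 CPM in wt mice, 4.2, 4.14, 4.42 and 4.35 CPM in Zmat3-/- mice, and 4.35, 4.18 and 4.86 CPM in TKO mice. Every mutant mouse lay above every wt mouse, at a low level throughout. In Zmat3-/- against wt mice the log2FC was 0.46 (95% interval −0.02 to 0.93, adjusted p = 0.332 from edgeR), and in TKO against wt mice it was 0.51 (−0.10 to 1.12, adjusted p = 0.543). Without wt mouse 2, the lowest, the values were 0.29 and 0.35. An exact permutation test over mice (two-sided, on log2 CPM) gave p = 0.0286 for the first, the smallest that 4 mice against 4 allow, and p = 0.0571 for the second, where 3 against 4 allow 0.0286. In all, 30 such permutation tests were run on the 10 genes, and their p-values were not adjusted. The smallest p of 0.0286 was also reached by Mxd1 in Zmat3-/- and by Mxd3 and Mxd4 in TKO against wt mice.

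Mycl (ENSMUSG00000028654.13, chromosome 4, 122995652 to 123002485) encodes L-MYC, which is known from dendritic cells. It was counted 18 to 138 times per mouse, the lowest of the network. Its level was 2.23, 2.22, 0.748 and 1.06 CPM in wt mice, 3.28, 2.44, 2.63 and 1.72 CPM in Zmat3-/- mice, and 2.66, 3.02 and 1.66 CPM in TKO mice. The wt mice fell into a higher and a lower pair, and the ranges of the genotypes overlapped. The log2FC was 0.68 in Zmat3-/- (95% interval −0.19 to 1.56, adjusted p = 0.42 from edgeR) and 0.62 in TKO against wt mice (−0.44 to 1.67, adjusted p = 0.639), the widest intervals of the 10 genes. Without wt mouse 3, the lowest, the values were 0.46 and 0.39, and over all mice left out in turn they ran up to 0.89 and 0.84. Within the Xist classes the differences of mean log2 CPM were 0.34 and 1.20 in Zmat3-/- and 0.25 and 1.28 in TKO against wt mice (high and low Xist). The 3 MYC genes therefore had opposite signs against wt mice, Myc negative and both minor genes positive, without any of them passing the test.

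Max (ENSMUSG00000059436.13, chromosome 12, 76937269 to 76962201) encodes the partner that MYC and MXD proteins need for binding DNA. Its level was 128, 108, 69.7 and 66.1 CPM in wt mice, 80.1, 83.3, 80.8 and 76.7 CPM in Zmat3-/- mice, and 82.7, 102 and 82.7 CPM in TKO mice. The 4 Zmat3-/- mice lay close together, while wt mice 1 and 2 lay above and wt mice 3 and 4 below all of them. The log2FC was −0.21 in Zmat3-/- (95% interval −0.67 to 0.26, adjusted p = 0.634 from edgeR) and −0.07 in TKO against wt mice (−0.65 to 0.51, adjusted p = 0.922). Without wt mouse 1 the values were −0.02 and 0.12. The sign of the Max difference was not the same in the 2 Xist classes, which in wt mice are mice 1 and 2 (high) and mice 3 and 4 (low). Within the mutants, Max was 80.1 and 83.3 (high) and 80.8 and 76.7 CPM (low) in Zmat3-/- mice. In TKO mice it was 82.7 (high) and 102 and 82.7 CPM (low). What sets the wt mice apart was not tested. Among mice with a high Xist level the mean log2 CPM was lower in the mutants, by −0.52 in Zmat3-/- and −0.51 in TKO mice. Among those with a low level it was higher, by 0.21 and 0.44, each from 1 or 2 mice per genotype and with no test. The differences of Mlx turned in the same way, with −0.34 and 0.19 in Zmat3-/- and −0.31 and 0.16 in TKO against wt mice (high and low Xist), and of the 10 genes 6 had the same sign in both classes in each of these comparisons. For Myc the within-class differences against wt mice kept 1 sign, with −0.71 and −0.44 in Zmat3-/- and −1.10 and −0.13 in TKO against wt mice (high and low Xist).

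Among the antagonists, Mxd3 (ENSMUSG00000021485.14, chromosome 13, 55325168 to 55329823) had the lowest log2FC. It encodes MXD3, known for being expressed in dividing cells in S phase. Its level was 63.4, 38, 38.7 and 36.9 CPM in wt mice, 33.1, 37.2, 28.6 and 21.4 CPM in Zmat3-/- mice, and 23.8, 24.3 and 34.4 CPM in TKO mice. Every TKO mouse lay below every wt mouse, whereas Zmat3-/- mouse 2 reached into the wt range. The log2FC was −0.70 in TKO (95% interval −1.26 to −0.13, adjusted p = 0.426 from edgeR) and −0.55 in Zmat3-/- against wt mice (−1.06 to −0.04, adjusted p = 0.274). Wt mouse 1 stood far above the other wt mice, and without it the values were −0.47 and −0.34. Markers of dividing cells summed to 2738 to 3934 CPM (wt), 2653 to 3541 CPM (Zmat3-/-) and 2643 to 4099 CPM (TKO), overlapping ranges. Wt mouse 1 was the highest wt mouse for 11 of these 12 markers, Cdk1 for example being counted at 146, 90, 65.9 and 62.2 CPM in wt mice 1 to 4. The part of dividing cells in the Mxd3 and Myc values was not tested.

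Mxd4 (ENSMUSG00000037235.13, chromosome 5, 34173883 to 34187720) encodes MXD4, an antagonist associated with differentiated cells. Its level was 377, 353, 393 and 396 CPM in wt mice, 400, 366, 431 and 430 CPM in Zmat3-/- mice, and 404, 505 and 486 CPM in TKO mice. The TKO mice lay above all wt mice, and the Zmat3-/- mice overlapped with both. Its log2FC was 0.28 in TKO (95% interval −0.05 to 0.62, adjusted p = 0.539 from edgeR) and 0.10 in Zmat3-/- against wt mice (−0.14 to 0.34, adjusted p = 0.657), and 0.18 in TKO against Zmat3-/- mice (−0.03 to 0.39, adjusted p = 0.983). Of its annotated exon bases, 6.06% overlap with the antisense gene Gm42846, and the library kit does not mark strand, so reads of the pair cannot be told apart there.

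Mxd1 (ENSMUSG00000001156.9, chromosome 6, 86647042 to 86669161) encodes MXD1, known for its rise when cells leave the cycle. Its level was 39, 45.1, 43.7 and 45.8 CPM in wt mice, 50.3, 47.2, 48.8 and 46.2 CPM in Zmat3-/- mice, and 44.3, 55.1 and 40.7 CPM in TKO mice. The lowest Zmat3-/- value stood just above the highest wt value, while the TKO mice spread over both. The log2FC was 0.15 in Zmat3-/- against wt mice (95% interval −0.05 to 0.35, adjusted p = 0.439 from edgeR, exact permutation p = 0.0286). In TKO against wt mice it was 0.10 (−0.24 to 0.43, adjusted p = 0.801 from edgeR, exact permutation p = 0.514).

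Mxi1, Mnt and Mlx had small log2FCs against wt mice. Mxi1 (ENSMUSG00000025025.14, chromosome 19, 53310518 to 53375810), a further SIN3-binding antagonist, was counted at 56.7 to 67.3 CPM (wt), 62.9 to 67.2 CPM (Zmat3-/-) and 62.1 to 74 CPM (TKO). Mnt (ENSMUSG00000000282.12, chromosome 11, 74830920 to 74845725), the widely expressed MYC antagonist, was counted at 41.9 to 45.6, 42.3 to 44.8 and 41.4 to 50 CPM. The narrowest interval of the comparisons with wt mice was that of Mnt in Zmat3-/- mice, a log2FC of −0.01 with a 95% interval of −0.19 to 0.17 (adjusted p = 0.945 from edgeR). For Mxi1 the interval was −0.14 to 0.23 in Zmat3-/- and −0.17 to 0.38 in TKO against wt mice. These intervals bound the difference and do not show that it is 0.

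Mlx (ENSMUSG00000017801.15, chromosome 11, 101087277 to 101092207) was counted at 46.5 to 65.5 CPM (wt), 48.9 to 58.9 CPM (Zmat3-/-) and 50.2 to 56.6 CPM (TKO). The log2FC was −0.08 in Zmat3-/- (95% interval −0.36 to 0.20, adjusted p = 0.753 from edgeR) and −0.07 in TKO against wt mice (−0.40 to 0.26, adjusted p = 0.845). Of its exon bases 19.3% overlap with Psmc3ip on the other strand and 17.1% of its 31-base words occur in another gene, a larger shared part than in any other of the 10, which makes its level uncertain. Of the factors that pair with MLX, Mlxip was counted at 85.2 ± 40.6 CPM (SD, n = 4) in wt, 93 ± 5.03 (SD, n = 4) in Zmat3-/- and 97.3 ± 2.05 (SD, n = 3) in TKO mice, and Mlxipl was too low to be tested (0 to 0.541 CPM). The MLX and MLXIP target Txnip, which restrains glucose uptake, had log2FCs of −0.004 and 0.09 in Zmat3-/- and TKO against wt mice (adjusted p = 0.989 and 0.818 from edgeR). Mga, a MAX partner with a T-box domain, spread from 64.5 and 87.5 CPM in wt mice 1 and 2 to 235 and 244 CPM in wt mice 3 and 4, around the 177 to 228 CPM of the 7 mutant mice.

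**Figure D2:**
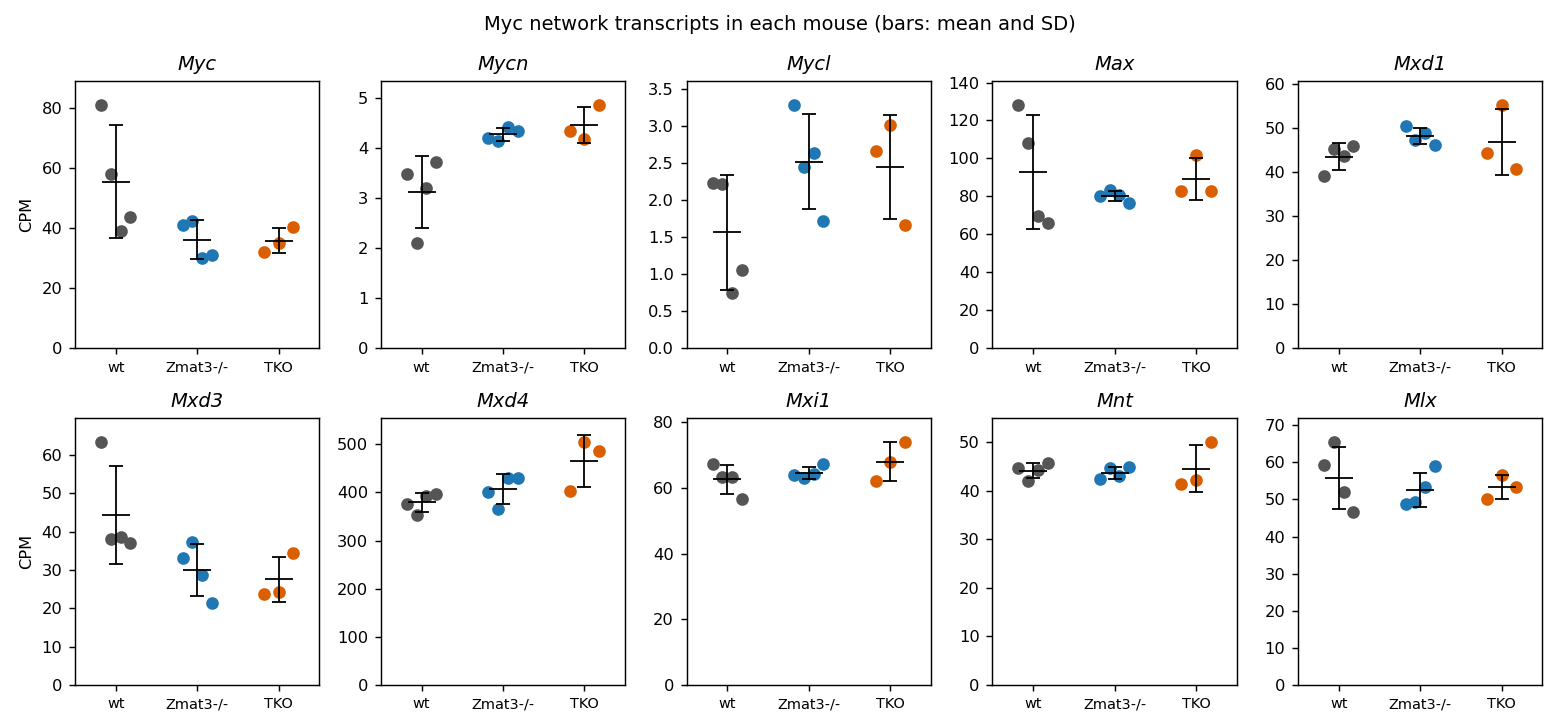
Level of each gene in CPM, one point per mouse in order of replicate number, with the mean and SD of each genotype (n = 4 wt, 4 Zmat3-/- and 3 TKO); each axis starts at 0. Wt mouse 1 has the highest Myc (81 CPM), Max (128 CPM) and Mxd3 (63.4 CPM), and the 7 mutant mice lie above all wt mice for Mycn.

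Read as a whole, the comparison of Zmat3-/- with wt thymocytes, which addresses the loss of ZMAT3 alone, called 0 of the 10 genes, against 0.763% of the 13494 genes tested (103 genes, adjusted p under 0.05 from edgeR). At an unadjusted p under 0.05 there were 2 genes, Myc and Mxd3, against 16.1% of all genes. The ranges of the genotypes did not overlap for 2 genes, Mycn and Mxd1, against 14.2% of all genes. Of the 10 log2FCs 5 were positive and 5 negative, with a median log2FC of 0.02 beside −0.03 over all genes tested. With 1 surrogate variable in the model, Myc (log2FC −0.49), Mycl (0.94) and Mxd3 (−0.48) passed the threshold, with adjusted p of 0.00251, 0.00972 and 0.0272 from edgeR. The study also adjusted for sex and surrogate variables, and since the number it used is not given in the sources used here, 1 was tried. That model called 37.7% of all genes, so 3 of 10 was no more than the share over all genes.

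The comparison of TKO with wt thymocytes, in which all 3 targeted genes differ, called 0 of the 10 genes, against 0.294% of the 13260 genes tested (39 genes). Myc and Mxd3 again had an unadjusted p under 0.05, against 10.3% of all genes. The ranges did not overlap for Mycn, Mxd4 and Mxd3, against 14.0% of all genes. Of the 10 log2FCs 6 were positive and 4 negative, and the median log2FC was 0.05 beside −0.04 over all genes. This comparison and the previous one share the 4 wt mice, so a feature of those mice enters both.

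The comparison of TKO with Zmat3-/- thymocytes, which asks what the loss of PUMA and p21 adds, does not involve the wt mice. It called 0 of the 10 genes, against 0.221% of the 13124 genes tested (29 genes). None had an unadjusted p under 0.05, against 4.50% of all genes, and the ranges overlapped for all 10, while those of 5.65% of all genes did not. The log2FC ran from −0.14 for Mxd3 to 0.18 for Mxd4, with adjusted p of 0.983 to 0.999 from edgeR. For Myc it was −0.02 with a 95% interval of −0.33 to 0.28, and for Mxd3 the interval was −0.55 to 0.27. The Xist classes had opposite signs for both genes, −0.39 and 0.30 for Myc and −0.56 and 0.22 for Mxd3 (high and low Xist, mean log2 CPM), and 4 of the 10 genes had the same sign in both. For Mycl, the least counted gene, the interval reached from −0.74 to 0.57.

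**Figure D3:**
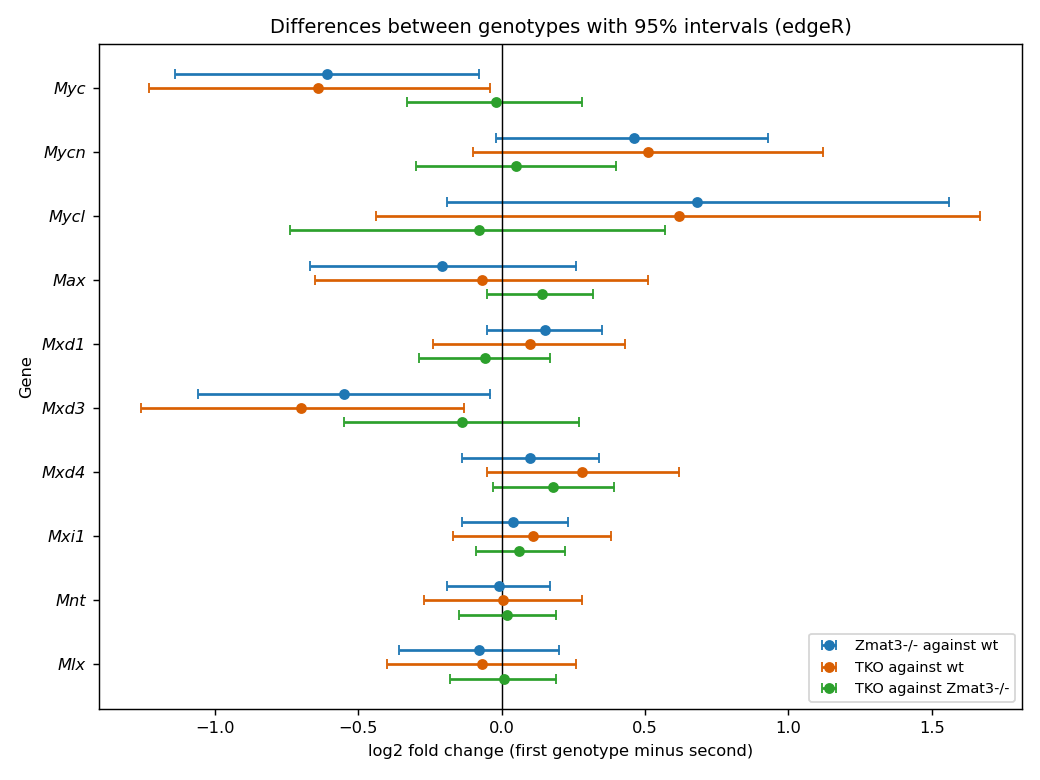
Log2 fold change of each gene in the 3 comparisons (points) with 95% intervals from edgeR's quasi-likelihood fit (bars), first genotype minus second. Intervals of Myc and Mxd3 against wt mice lie below 0 before adjustment for multiple testing (Myc in Zmat3-/- mice −1.14 to −0.08), and all intervals of TKO against Zmat3-/- mice include 0.

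Summed per length, the balance of MYC and antagonist transcripts differed most among the wt mice. The sum of Mxd1, Mxd3, Mxd4, Mxi1 and Mnt over the sum of Myc, Mycn and Mycl, both in CPM per kb, was 3.06, 3.65, 5.66 and 4.96 in wt mice, 5.03, 4.82, 6.78 and 6.5 in Zmat3-/- mice, and 5.95, 6.46 and 5.91 in TKO mice. The 3 TKO mice lay above all wt mice, and wt and Zmat3-/- mice overlapped. The antagonist sum itself was 88.3 ± 5.79 CPM per kb (SD, n = 4) in wt, 86.3 ± 1.72 (SD, n = 4) in Zmat3-/- and 92.6 ± 9.27 (SD, n = 3) in TKO mice. The MYC sum was 21.8 ± 7.09, 15.2 ± 2.49 and 15.2 ± 1.51 CPM per kb in the same order, with wt mice 1 and 2 at 31.4 and 22.6 and wt mice 3 and 4 at 15.5 and 17.5. Without wt mouse 1 the wt mean of the MYC sum was 18.5 ± 3.66 (SD, n = 3) and that of the ratio 4.76 ± 1.02 (SD, n = 3). Myc made up 93.6 ± 1.45% (SD, n = 4) of the MYC sum in wt, 87.2 ± 1.98% (SD, n = 4) in Zmat3-/- and 87 ± 1.65% (SD, n = 3) in TKO mice, and Mxd4 made up 50.8 ± 3.37%, 55.5 ± 3.54% and 59.1 ± 2.15% of the antagonist sum. MYC and antagonist transcripts together stood at 4.53 ± 1.14 (SD, n = 4), 4.56 ± 0.126 (SD, n = 4) and 4.38 ± 0.582 (SD, n = 3) per Max transcript. These sums describe transcripts, not proteins, and were not tested.

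**Figure D4:**
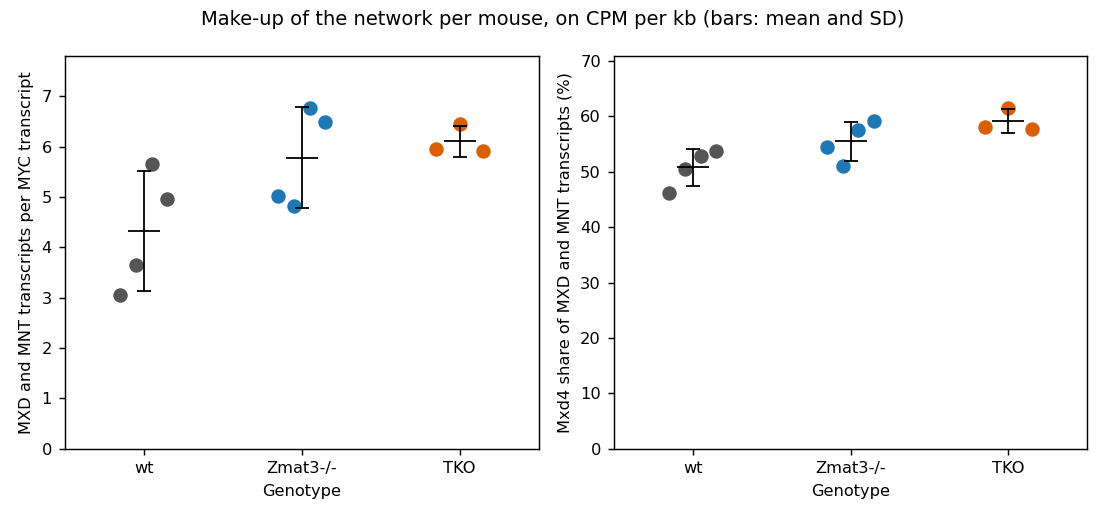
Left, antagonist transcripts (Mxd1, Mxd3, Mxd4, Mxi1, Mnt) per MYC transcript (Myc, Mycn, Mycl); right, Mxd4 as a percentage of the antagonist sum; both on CPM per kb, one point per mouse, with mean and SD and axes from 0. The ratio spans 3.06 to 5.66 in wt and 5.91 to 6.46 in TKO mice.

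Genes that work with the network or respond to it were read from 9 lists of 118 genes, 116 of which were tested. None passed the test in any of the comparisons. At an unadjusted p under 0.05 there were 9, 6 and 2 of the 116 (7.76%, 5.17% and 1.72%) for Zmat3-/- against wt, TKO against wt and TKO against Zmat3-/- mice, beside 16.1%, 10.3% and 4.50% of all genes. Of 75 tested genes known to be activated by MYC, 29 had a positive and 46 a negative log2FC in Zmat3-/- against wt mice (median −0.07). The split was 30 to 45 in TKO against wt mice (median −0.07) and 40 to 35 in TKO against Zmat3-/- mice (median 0.0055). Over all genes the medians were −0.03, −0.04 and −0.0083. The counts of called genes depended on the model against wt mice, where DESeq2 called 4 and 3 of the 116 and a surrogate variable called 44 and 17. Of all genes, DESeq2 called 8.04% and 2.87% and the surrogate variable model 37.7% and 14%.

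Cofactors that MYC and MXD proteins recruit were near the middle of all genes. Of 12 MYC coactivators, 4 were higher and 8 lower in Zmat3-/- than in wt mice (median log2FC −0.10). Kat5, the TIP60 acetyltransferase, was counted at 60.6, 59.6, 53.5 and 48.6 CPM in wt, 39.9, 45.4, 40.3 and 39.6 CPM in Zmat3-/- and 41.3, 32.4 and 42.3 CPM in TKO mice, all 7 mutants lying below all wt mice. Its log2FC was −0.43 in Zmat3-/- (adjusted p = 0.0966 from edgeR) and −0.53 in TKO against wt mice (adjusted p = 0.314). Paf1, of the elongation complex PAF1C, had −0.37 (adjusted p = 0.216 from edgeR) in Zmat3-/- mice, and Smarcb1, a SWI/SNF subunit, −0.33 (adjusted p = 0.481) in TKO mice. Among 10 genes of the SIN3 and NCOR corepressor complexes, 4 were higher and 6 lower in each mutant than in wt mice. The genes with the smallest p, Sap18 (log2FC −0.19) and Rbbp4 (−0.24) in Zmat3-/- and Sin3a (0.31) and Ncor1 (0.53) in TKO against wt mice, had adjusted p of 0.419 to 0.655 from edgeR. Of 10 genes that set MYC protein stability, 7 were higher and 3 lower in both mutants, and the ubiquitin ligase subunit Skp2 (log2FC −0.32, adjusted p = 0.413 from edgeR, Zmat3-/- mice) and the MYC kinase Gsk3b (0.48, adjusted p = 0.626, TKO mice) had the smallest p.

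Among the targets, genes of opposite sign stood side by side. Tfrc, the transferrin receptor and a direct MYC target, was counted at 85.5, 72.4, 92.7 and 92.8 CPM in wt, 120, 120, 117 and 118 CPM in Zmat3-/- and 114, 127 and 128 CPM in TKO mice. Ddx21, a helicase of ribosome production, was counted at 108, 120, 126 and 128 CPM in wt, 168, 159, 155 and 149 CPM in Zmat3-/- and 166, 166 and 176 CPM in TKO mice. For both genes every mutant mouse lay above every wt mouse, whereas Myc itself had its highest values in wt mice. Slc1a5 lay the other way, at 187 to 197 CPM in wt, 154 to 166 CPM in Zmat3-/- and 149 to 182 CPM in TKO mice. Ranges of Zmat3-/- and wt mice did not overlap for 2 of 29 ribosome, 3 of 30 metabolism and 2 of 16 cycle targets, beside 14.2% of all genes. For TKO and wt mice the counts were 2, 4 and 1, beside 14.0%. The log2FC of Tfrc was 0.47 (adjusted p = 0.0895 from edgeR) and 0.50 (adjusted p = 0.305), and that of Ddx21 0.39 (adjusted p = 0.11) and 0.48 (adjusted p = 0.275), in Zmat3-/- and TKO against wt mice. Slc1a5, a glutamine transporter, and Ppan, a ribosome assembly factor, had log2FCs in Zmat3-/- against wt mice of −0.26 (adjusted p = 0.181 from edgeR) and −0.39 (adjusted p = 0.244). Prps2, of purine synthesis, had 0.47 in TKO against wt mice (adjusted p = 0.426). Among growth and cell cycle targets Ccnd2, cyclin D2, had 0.29 and Ccne1, cyclin E1, −0.45 in Zmat3-/- mice (adjusted p = 0.314 and 0.391 from edgeR).

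Of 5 tested genes that MYC is known to repress, 2 were higher and 3 lower in each mutant than in wt mice. Gadd45a, a growth arrest gene, was counted at 26.8, 26.3, 12.7 and 15.7 CPM in wt, 29.9, 33.9, 30.9 and 37.5 CPM in Zmat3-/- and 35.2, 30.9 and 28.4 CPM in TKO mice, with log2FCs of 0.70 (adjusted p = 0.204 from edgeR) and 0.62 (adjusted p = 0.491). It is also a TRP53 target. Cdkn1b, which encodes p27, had 0.30 in Zmat3-/- (adjusted p = 0.43 from edgeR), and Ndrg2 had −0.37 in TKO against wt mice (adjusted p = 0.593). Between TKO and Zmat3-/- mice the smallest p among the targets were those of Ubtf, the ribosomal RNA transcription factor (log2FC 0.18), and Bysl (0.21), both with an adjusted p of 0.983 from edgeR.

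**Figure D5:**
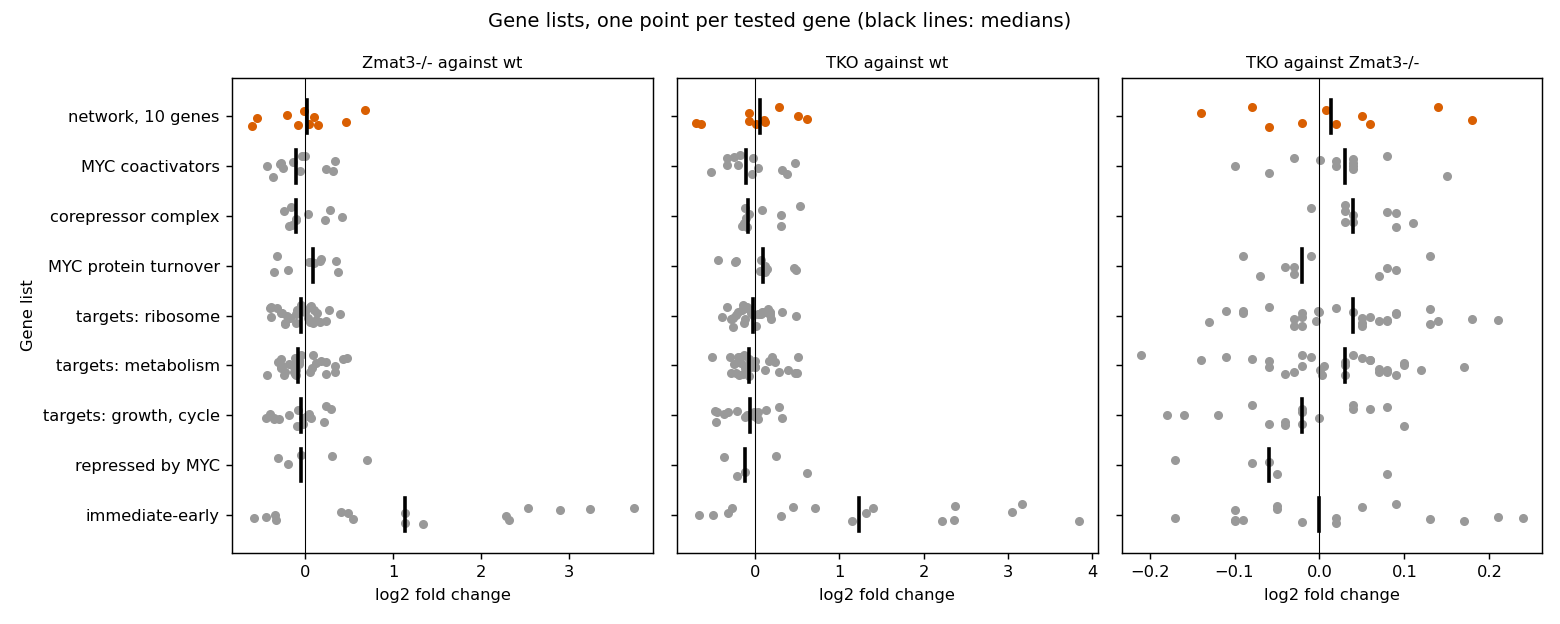
Log2 fold change of each tested gene (points) in the network and in 8 gene lists, with list medians (black lines), in the 3 comparisons; the panel of TKO against Zmat3-/- mice has a narrower axis. Medians of the network are 0.02, 0.05 and 0.01, and only the immediate-early list has a median far from 0 against wt mice (1.13 and 1.23). All lists were chosen with earlier results of these data known.

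Over the whole table, genes with and without the E-box had close medians. The motif lay in a promoter window of 19 of 63 listed activated targets (30.2%) against the 8.09% of all genes with a window. Tested genes with the motif had a median log2FC of −0.02 (interquartile range −0.23 to 0.19, 1156 genes) in Zmat3-/- against wt mice, and those without it −0.03 (−0.23 to 0.19, 8722 genes). In TKO against wt mice both medians were −0.04. Called genes were 9 of the 1156 and 47 of the 8722 in the first comparison, and 6 of 1145 with and 15 of 8582 without the motif in the second. Medians of this kind say nothing of which factor, if any, binds there.

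Myc is also an immediate-early gene, one of a class induced rapidly by growth signals, and most others of that class had the opposite sign. Of 16 such genes without Myc, 12 had positive log2FCs in both mutants against wt mice (medians over the list 1.13 and 1.23), and 4, Egr1, Egr2, Egr3 and Btg2, had negative ones as Myc did. The test called 5 of the 16 in Zmat3-/- and 4 in TKO against wt mice, all higher, beside 0.763% and 0.294% of all genes. The list was chosen with earlier results of these data known. It holds Fos, Jun, Klf4, Arc and Dusp1, which the study had named as differing between TKO and wt mice. These counts are therefore no independent support. The summed level of the 16 genes was 790 to 1172 CPM (wt), 1586 to 1961 CPM (Zmat3-/-) and 1673 to 1946 CPM (TKO). Klf4, for example, had a log2FC of 2.89 in Zmat3-/- against wt mice (adjusted p = 0.000752 from edgeR), beside −0.61 for Myc. The part of these genes in the Myc values was not tested.

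Over the 11 mice, the genes whose log2 CPM was most like that of Myc among 12957 genes were Lsm2 (Pearson's r = 0.99), Tap1 (0.979), Snrpa (0.974), Rpusd1 (0.973) and Fbxo5 (0.969), given as a description because the mice share genotypes and library differences. Lsm2 was counted at 27.9 to 55.2 CPM (wt), 19.6 to 28.1 CPM (Zmat3-/-) and 23.6 to 27 CPM (TKO). Within the network Mxd3 was most like Myc (r = 0.898), followed by Max (0.665), and Mycn (−0.581), Mxd1 (−0.545) and Mxd4 (−0.535) were least like it.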

How the data were processed

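RNA of thymocytes from 11 mice was sequenced as paired ends after TruSeq RNA v2 library preparation, which does not mark strand. The authors quantified reads with Salmon in nf-core/rnaseq against GRCm38.p6 and deposited estimated counts per gene, 1 column per mouse, not normalized. The labels also name DESeq2 1.40.0 and bcl2fastq. All values were whole, so rounding changed 0 of 598598. Identifiers were matched to GENCODE M21 (54166 matched, 252 not), whereas the study used a later GENCODE release. Mice were grouped by their labels, which call them separate animals by number only, so p-values measure the spread between these samples.

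CPM used TMM factors over all 11 mice, log2 CPM a prior count of 2, and per-length levels the union of annotated exons. Pairwise comparisons used TMM scaling and the two-sided quasi-likelihood F-test of edgeR 4.0.16, run in R 4.3.3 beside limma 3.58.1. A gene entered with 20 counts or more, after scaling to the smallest library, in a number of mice equal to the smaller group. Xist, chromosome Y, rRNA and non-coding immunoglobulin genes (1628 in all) were left out. Called means a Benjamini-Hochberg adjusted p under 0.05 over all tested genes. The test was checked on simulated counts. Alternatives were DESeq2 1.42.0, RLE size factors, no filter, 1 fit over 3 genotypes, the replicate number as a block, the Xist level, 1 surrogate variable (sva 3.50.0), and each mouse left out. Differences within Xist classes were added after seeing the data. The labels give no sex.

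The 10 genes and all gene lists were chosen with earlier results of these data known. Genes named from a list are those that passed, up to 4, or otherwise the 2 with the smallest p, of which the text gives a part. Genes like Myc are the 5 with the highest Pearson correlation. Intervals from counts cover counting error only. At a floor of 3 counts a mouse could show 0.0361 to 0.174 CPM. Protein sequences were not used here.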

Additional observations from a re-analysis of the deposited data

Results flagged for a closer look

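Mxd3 in wt mice was singled out because 1 mouse lay far from the others: wt mouse 1 had 63.4 CPM, while the other wt mice had 36.9 to 38.7 CPM. Its gap to the nearest value was 0.935 of the range, above Dixon's critical value for 4 mice. Of 20 groups of 4 mice tested (10 genes in wt and Zmat3-/- mice), 1 was singled out in this way, and chance alone gives about 1 in 20.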

How the results depend on the processing

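None of the 10 genes was called in any comparison under DESeq2, RLE size factors, no filter, 1 fit over the 3 genotypes, the Xist level, the replicate number as a block or any mouse left out; the exception was 1 surrogate variable, which called 3 in Zmat3-/- against wt mice. Of the single-gene log2FCs, 145 of 150, 129 of 140 and 124 of 140 kept sign and side of the threshold in Zmat3-/- against wt, TKO against wt and TKO against Zmat3-/- mice. Of the 116 other pathway genes, with 0 called in the reported fits, DESeq2 called 4 against wt in Zmat3-/- and 3 in TKO mice, the 3-genotype fit 1 and 2, and a surrogate variable 44 and 17. The shares of all genes were 8.04% and 2.87%, 1.77% and 1.63%, and 37.7% and 14% in these settings. In TKO against wt mice, Max became 0.04 with the Xist level and 0.12 with a surrogate variable, and Mnt −0.01 and −0.0095. In TKO against Zmat3-/- mice the Xist level gave 0.02 for Myc and −0.01 for Mlx, and a surrogate variable 0.11 for Mycl, 0.0095 for Mxd1 and −0.04 for Mnt. With 1 mouse left out, signs turned for Mnt in Zmat3-/- against wt (−0.05 to 0.0071), for Max (−0.20 to 0.12), Mxd1 (−0.04 to 0.19), Mnt (−0.08 to 0.08) and Mlx (−0.15 to 0.007) in TKO against wt, and for Myc (−0.11 to 0.06), Mycl (−0.24 to 0.16), Mxd1 (−0.18 to 0.04), Mnt (−0.06 to 0.07) and Mlx (−0.02 to 0.07) in TKO against Zmat3-/- mice. The cause was not tested.

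Over all genes the count called moved with the setting. In Zmat3-/- against wt mice 103 became 1085 with DESeq2, 239 in the 3-genotype fit, 177 with the Xist level, 5086 with a surrogate variable, 55 without a filter and 17 to 46 with any mouse but wt mouse 1 left out (105 without that one). In TKO against wt mice 39 became 381, 216, 52, 1855 and 61 in the same order, and 16 to 18 without any 1 of the TKO mice. In TKO against Zmat3-/- mice 29 became 73 with DESeq2, 16 in the 3-genotype fit and 90 without a filter. With the replicate block, 0 of the 10 were called and 12, 16 and 21 genes overall. Same-numbered mice correlated at 0.0858 to 0.323 (Zmat3-/- against wt), 0.0703 to 0.386 (TKO against wt) and −0.00288 to 0.165 (TKO against Zmat3-/-). Differently numbered mice correlated at −0.351 to 0.337, −0.401 to 0.26 and −0.279 to 0.174 in the same order. The replicate numbers were not taken as pairs, because not every mouse correlated best with its own number. Mycl had the fewest counts, down to 18, and the widest intervals of the 10 genes.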
